A study of Mus musculus with 18 samples.

Results

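The genes described here are 9 members of the oxygen-sensing pathway in mouse liver, chosen by name among the 14451 genes of the expression table: the hypoxia-inducible factor (HIF) subunits *Hif1a*, *Epas1* and *Arnt*, the prolyl hydroxylases *Egln1*, *Egln2* and *Egln3*, and the target genes *Vegfa*, *Ankrd37* and *Bnip3*. All 9 had a row in the table, and all 9 were among the 14449 genes tested. Whole livers were taken from 18 male wild-type (WT) mice of 8 to 9 weeks kept under 12 h of light and 12 h of dark, 3 mice at each of the zeitgeber times (ZT, hours after lights on) ZT1, ZT5, ZT9, ZT13, ZT17 and ZT21. ZT1, ZT5 and ZT9 are in the light and ZT13, ZT17 and ZT21 in the dark. Each mouse gave 1 liver, so no animal was followed over time, and each group holds the mice of a larger group whose RNA was of the best quality. Polyadenylated RNA was sequenced as short single-end reads to a depth of 10268168 to 23242842 estimated reads per liver. Values are given on the normalized linear scale of the deposited table, in which 1 unit is close to 1 read in 1000000, and the number after ± is the SD over 3 livers.

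HIF is a pair of proteins, an alpha subunit and *Arnt*, that binds DNA and switches on genes for glycolysis, blood vessel growth and the turnover of mitochondria when oxygen is short. While oxygen is present the Egln enzymes add a hydroxyl group to the alpha subunit, the von Hippel-Lindau ubiquitin ligase then binds it, and the protein is destroyed. This control acts on protein, which was not measured here, whereas several HIF targets, *Egln1* and *Egln3* among them, respond in their mRNA. In the liver oxygen falls along the sinusoid from the portal to the central vein, and feeding and the clock change its use over the day.

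*Bnip3*, *Egln1* and *Egln2* had a 24 h rhythm that was called with all livers and without any single one. *Bnip3*, which encodes a receptor on the outer mitochondrial membrane that directs mitochondria to autophagy, had a mean of 126 ± 5.52 at ZT1 and 276 ± 19.7 at ZT13, a ratio of 2.20. *Egln1*, the main oxygen sensor of the pathway, was higher in the dark, and *Egln2* peaked before lights off. *Hif1a*, *Egln3* and *Vegfa* passed none of the tests of time with all 18 livers in the deposited scaling, and *Arnt* had a low value at ZT5 that a 24 h curve does not describe.

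Promoter sequences of the pair of members called rhythmic by both methods used here are shown because HIF and the clock proteins bind closely related DNA words. The core of the HIF response element is ACGTG or GCGTG, and the E-box CACGTG, bound by the clock factors Clock and Arntl, contains ACGTG on each strand. Sequences are RefSeq promoter windows on GRCm38.p6, upstream of the start of transcription and on the gene's strand, with ACGTG or GCGTG on either strand in capitals (CACGT and CACGC are the same words on the other strand). The *Egln2* window lies at chr7:27166803-27167052 and that of *Bnip3* at chr7:138909507-138909756, both on the minus strand. The *Bnip3* sequence is printed from chr7:138909520-138909756 only, because the GENCODE start of the gene lies upstream of the RefSeq start and the bases between them are left out, while positions in the text are counted from the RefSeq start.
Bnip3: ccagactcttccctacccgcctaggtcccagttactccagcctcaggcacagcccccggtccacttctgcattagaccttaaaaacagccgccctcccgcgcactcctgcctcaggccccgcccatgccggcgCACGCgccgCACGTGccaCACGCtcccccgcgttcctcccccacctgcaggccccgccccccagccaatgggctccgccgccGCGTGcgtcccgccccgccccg
Egln2: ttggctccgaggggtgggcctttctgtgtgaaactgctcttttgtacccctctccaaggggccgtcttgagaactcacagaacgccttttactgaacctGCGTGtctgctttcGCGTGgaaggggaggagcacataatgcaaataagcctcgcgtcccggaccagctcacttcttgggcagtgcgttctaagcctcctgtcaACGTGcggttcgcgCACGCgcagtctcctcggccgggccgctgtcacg

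The *Bnip3* window held 5 matches, all within the printed bases, and 2 of them overlap in a CACGTG whose first base lies 108 bases before the RefSeq start, and the *Egln2* window held 4 with no CACGTG. Over the 250 bases upstream of the start, CACGTG was present in 2 of the 10 RefSeq windows of 8 members, those of *Bnip3* and *Hif1a* (135 bases before the start), against 6.02% of 32851 mouse promoter windows. ACGTG was in 7 of the members' 10 windows, against 16.6% of all windows. ACGTG or GCGTG was in 9 of the 10, against 38.6% of all windows, and the window without one was the upstream one of *Vegfa*. A match of letters is a description and shows no binding.

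A 24 h cosine, fitted by limma to log2(value + 1) of every gene, was called in 4 of the 9 members, namely *Egln1*, *Egln2*, *Ankrd37* and *Bnip3*, at an adjusted p below 0.05 (Benjamini-Hochberg over all genes tested). The same fit called 35.3% of all genes, and of these 5103 genes 2469 had a fitted peak in the dark and 2634 in the light. A comparison of the 6 time points without a curve called *Arnt*, *Egln1* and *Bnip3*, 3 of the 9, against 26.3% of all genes. JTK, a rank test against cosine orders of 20, 24 and 28 h, called *Egln2* and *Bnip3*, 2 of the 9, against 14.1% of all genes. Mean levels in the dark differed from those in the light in 2 of the 9, *Egln1* and *Bnip3*, against 24.3% of all genes, and both were higher in the dark, as 11.9% of all genes were. The median amplitude of the 9 genes was 0.16 on the log2 scale, and that of all genes tested was also 0.16.

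The time of the highest mean was ZT13 in 5 of the 9 members (*Epas1*, *Egln1*, *Vegfa*, *Ankrd37* and *Bnip3*), against 18.8% of all genes tested. The lowest mean was at ZT1 in 4 members (*Egln1*, *Egln2*, *Vegfa* and *Bnip3*) and at ZT21 in 4 others (*Hif1a*, *Epas1*, *Egln3* and *Ankrd37*), against 14.8% and 13.7% of all genes. In 8 of the 9 members the 3 livers of the highest time point did not overlap those of the lowest, *Egln3* being the exception, against 70.8% of all genes. When the time points of each member were ordered by their means, none of the 45 pairs of neighbours passed the test (limma; 3 had an unadjusted p below 0.05), the lowest adjusted p being 0.0545, for *Bnip3* between ZT13 and ZT9. Such neighbours are next in rank, not in time, and are close by construction, so no conclusion is drawn from this count. Consecutive times of day are compared below.

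**Figure D1:**
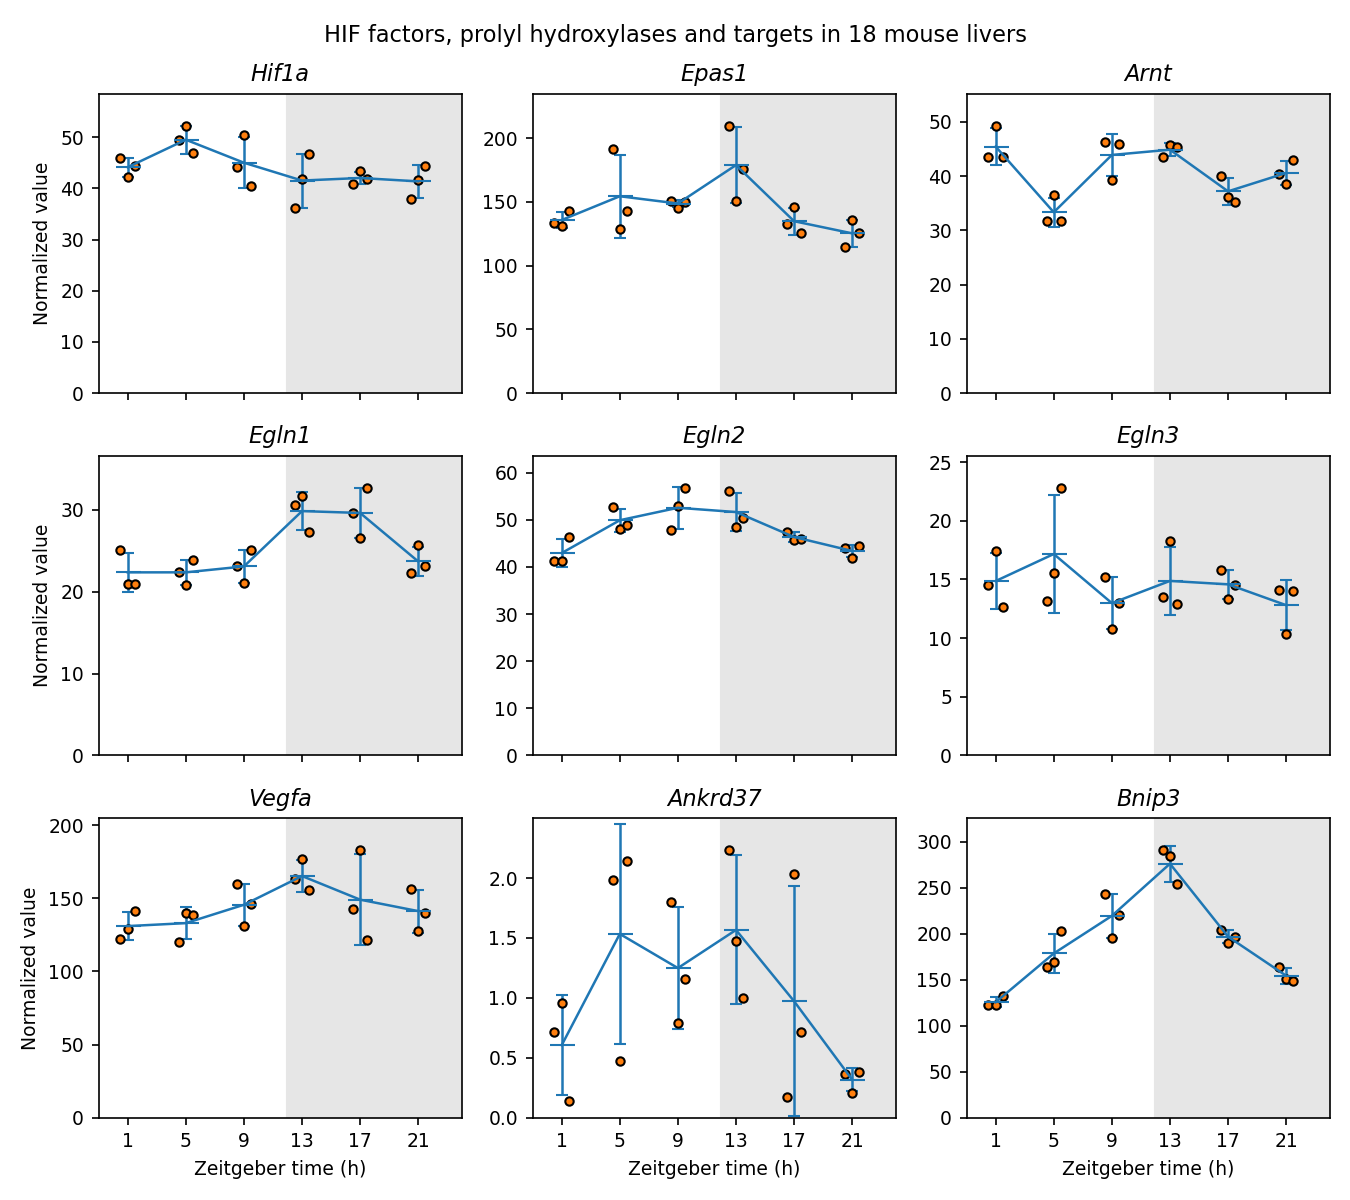
Normalized value (vertical axes, linear, from 0) of each of the 9 genes against zeitgeber time in hours (horizontal axes). Points are single livers, the line joins the means of 3 livers, error bars are the SD and the shaded area is the dark phase. *Bnip3* rises from a mean of 126 at ZT1 to 276 at ZT13, while the livers of *Egln3* and *Ankrd37* scatter widely within time points.

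Of the 15 pairs of time points, 10 held a called difference in at least 1 member, 16 differences in all. ZT5 differed from ZT1 in *Arnt* and *Bnip3*, against 4.89% of all genes. ZT13 differed from ZT1 in *Egln1* and *Bnip3*, against 14.2%, and ZT17 from ZT1 in the same pair of genes, against 6.79%. ZT9 differed from ZT1 in *Bnip3*, against 10.7% of all genes, and so did ZT21 from ZT9, also against 10.7%. ZT13 differed from ZT5 in *Arnt*, *Egln1* and *Bnip3*, against 16.9%. In *Egln1* alone, ZT17 differed from ZT5, against 19.7%, and from ZT9, against 17% of all genes. ZT21 differed from ZT13 in *Epas1* and *Bnip3*, against 10.1%, and ZT17 differed from ZT13 in *Bnip3*, against 1.2% of all genes. No member passed between ZT21 and ZT1 (0.131% of all genes), ZT9 and ZT5 (1.54%), ZT21 and ZT5 (8.06%), ZT13 and ZT9 (9.23%) or ZT21 and ZT17 (1.51%) in these limma contrasts, in which 11 differences of members had an unadjusted p below 0.05.

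*Hif1a* (ENSMUSG00000021109, GRCm38 chr12:73901375-73947530, plus strand) encodes the HIF alpha subunit found in most cell types. Its values in the light were 45.8, 42.2 and 44.4 at ZT1, 49.4, 52.2 and 46.8 at ZT5 and 44.1, 50.4 and 40.5 at ZT9. In the dark they were 36.1, 41.8 and 46.7 at ZT13, 40.9, 43.4 and 41.8 at ZT17 and 38.0, 41.7 and 44.4 at ZT21. The 3 livers of ZT5 were above all livers of ZT1, ZT13, ZT17 and ZT21 and overlapped those of ZT9, but the spread at ZT9 and ZT13 covered most of the range. The fitted amplitude was 0.11 ± 0.04 (SE) on the log2 scale with a peak at ZT5.24, and it did not pass (adjusted p = 0.109, limma). Dark livers were 0.15 ± 0.06 (SE, log2) below light livers (adjusted p = 0.0916, limma). With columns scaled to equal totals, both passed in the same direction, with an amplitude of 0.16 (adjusted p = 0.0275) and a difference of -0.20 (adjusted p = 0.0319, limma), and the difference also passed without ZT13 replicate 3 (adjusted p = 0.0461). Exons of *Hif1a* share 330 bases with the antisense transcript *Gm15283* and 148 with *Gm49321* on the same strand, neither of which was analysed here.

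*Epas1* (ENSMUSG00000024140, chr17:86753700-86833410, plus strand) encodes the other main alpha subunit, also named HIF-2 alpha, which is abundant in endothelium and controls iron uptake and erythropoietin. The light livers had values of 133, 131 and 143 at ZT1, 191, 129 and 143 at ZT5 and 151, 146 and 149.8 at ZT9. The dark livers had values of 209.95, 151 and 176 at ZT13, 133, 146 and 125 at ZT17 and 115, 136 and 126 at ZT21. All 3 livers of ZT13 were above all 3 of ZT21, and 1 liver of ZT5 stood far above the others of its group. Between ZT13 and ZT21 *Epas1* fell by 0.50 ± 0.14 (SE) on the log2 scale (adjusted p = 0.0320, limma). That call was lost when the columns were scaled to equal totals (-0.49) and when any 1 of ZT13 replicate 1, ZT13 replicate 3, ZT21 replicate 1 or ZT21 replicate 3 was left out, with a difference of -0.38 and an adjusted p of 0.136 without ZT13 replicate 1. The 24 h amplitude was 0.19 ± 0.06 (SE, log2) with a peak at ZT10.2, and it did not pass (adjusted p = 0.0577, limma), although it passed without ZT5 replicate 1 (0.0367) and without ZT9 replicate 2 (0.0485). The call was also made with equal totals (0.0390), with limma-trend (0.0348) and among genes with a mean value of at least 1 (0.0498).

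Because *Epas1* is abundant in endothelium, it is set beside 8 markers of sinusoidal endothelial cells and 8 of Kupffer cells, the resident macrophages of the liver. In bulk tissue, fewer cells of a type and less RNA per cell cannot be told apart. ZT5 replicate 1, which had 191 for *Epas1* against 129 and 143 in the other livers of ZT5, also had the highest summed value of all 18 livers for endothelial markers (301), Kupffer markers (323), stellate cell and fibroblast markers (316) and blood markers (378). Other livers paired less closely or not at all. ZT21 replicate 1, lowest of all for *Epas1* (115), also had the lowest Kupffer sum (125). Its other sums were 139 (endothelial), 191 (stellate and fibroblast) and 211 (blood). ZT13 replicate 3, with 176 for *Epas1*, had sums of 272 (endothelial), 300.4 (Kupffer), 274 (stellate and fibroblast) and 175 (blood). ZT13 replicate 1, highest of all for *Epas1* (209.95), had sums of 264 (endothelial), 232 (Kupffer), 252 (stellate and fibroblast) and 103 (blood, the lowest of all livers). ZT17 replicate 2 had the lowest endothelial sum (127) and the highest *Epas1* of ZT17 (146). The endothelial sum ranged from 127 to 301 over all livers, with 244 to 301 at ZT5, 185 to 272 at ZT13 and 139 to 213 at ZT21. The Kupffer sum ranged from 125 to 323, with 242 to 323 at ZT5, 227 to 300.4 at ZT13 and 125 to 193 at ZT21. A 24 h rhythm was called in 3 of the 8 endothelial and 4 of the 8 Kupffer markers, against 35.3% of all genes, all with a peak in the light. The time points without a curve called 0 of the 8 endothelial and 1 of the 8 Kupffer markers (limma), against 26.3% of all genes. JTK called 0 in each list, against 14.1%. None of the markers of these lists was at 0 in any liver, and their part in the *Epas1* values was not tested.

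**Figure D2:**
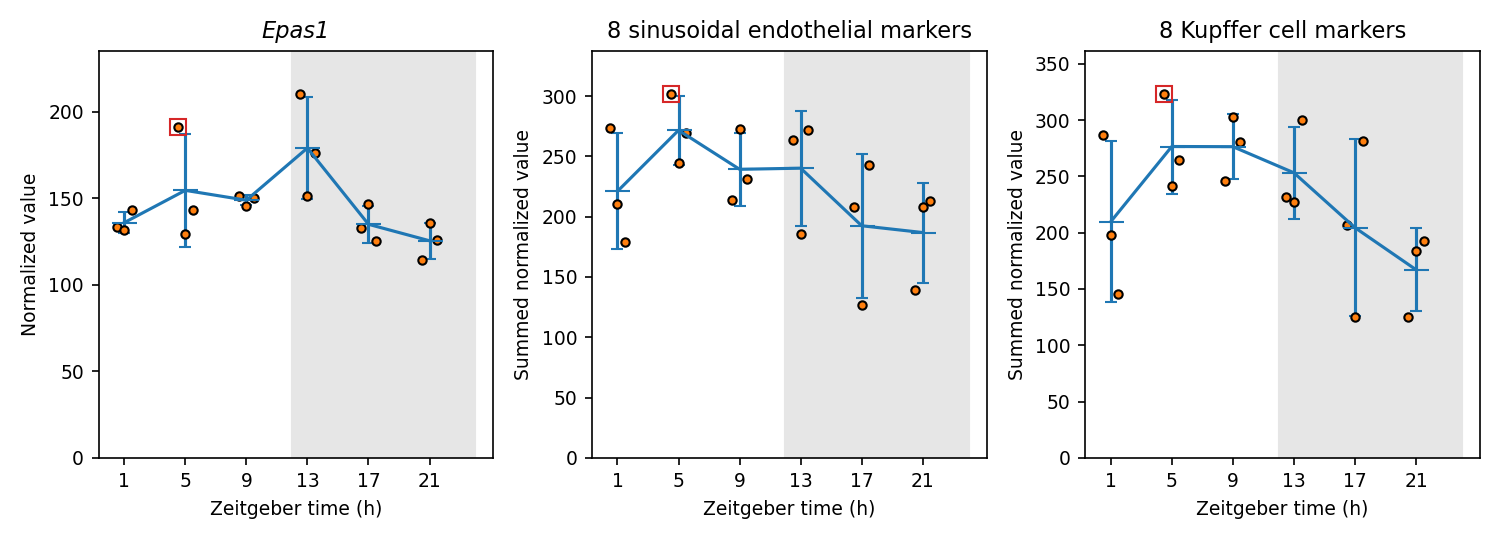
*Epas1* (left, normalized value) and the summed normalized values of 8 sinusoidal endothelial markers (middle) and 8 Kupffer cell markers (right) against zeitgeber time in hours, on linear axes from 0. Points are single livers, the line joins the means of 3 livers, bars are the SD, shading is the dark phase and the red square marks ZT5 replicate 1, which is the highest liver in both marker sums (301 and 323).

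*Arnt* (ENSMUSG00000015522, chr3:95434388-95497240, plus strand) encodes the beta subunit that both alpha subunits and the aryl hydrocarbon receptor need to bind DNA. Light livers had values of 43.5, 49.3 and 43.5 at ZT1, 31.8, 36.5 and 31.7 at ZT5 and 46.4, 39.4 and 46.0 at ZT9. Dark livers had values of 43.6, 45.7 and 45.4 at ZT13, 40.1, 36.2 and 35.3 at ZT17 and 40.3, 38.5 and 43.0 at ZT21. The profile thus had a low value at ZT5, which did not overlap ZT1, ZT9, ZT13 or ZT21, and a second low value at ZT17, which overlapped ZT5, ZT9 and ZT21. The 6 time points differed (adjusted p = 0.0116, limma), and the call held without any 1 liver (up to 0.0422). *Arnt* fell by 0.44 ± 0.09 (SE, log2) from ZT1 to ZT5 (adjusted p = 0.0133) and was 0.42 ± 0.09 higher at ZT13 than at ZT5 (adjusted p = 0.00634, limma). The first of these calls was lost without ZT1 replicate 2, ZT5 replicate 1 or ZT5 replicate 3 (-0.40 to -0.38, adjusted p up to 0.0809).

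A 24 h curve did not describe *Arnt*, with an amplitude of 0.04 ± 0.06 (SE, log2) and an adjusted p of 0.856 (limma). When a 12 h pair was fitted beside the 24 h pair, *Arnt* was the 1 member of 9 with a called 12 h term (amplitude 0.21, adjusted p = 0.0479, limma), against 0.872% of all genes, and 12.6% of all genes had an unadjusted p below 0.05 for that term. The call was lost in 17 of the 18 fits without 1 liver (adjusted p 0.0406 to 0.107 over all 18), with a pseudocount of 0.1 (0.0590), with no pseudocount (0.0578) and with equal column totals (0.0606).

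*Egln1* (ENSMUSG00000031987, chr8:124908587-124949324, minus strand) encodes the hydroxylase, also called PHD2, that limits HIF in most tissues. Its livers in the light had values of 25.2, 21.0 and 21.0 at ZT1, 22.4, 20.8 and 23.9 at ZT5 and 23.2, 21.0 and 25.1 at ZT9. In the dark the values were 30.6, 31.7 and 27.3 at ZT13, 29.7, 26.5 and 32.7 at ZT17 and 22.2, 25.7 and 23.1 at ZT21. All 6 livers of ZT13 and ZT17 were above all 12 others, and the livers of ZT21 overlapped the light livers, with 1 of them above all 9. The amplitude was 0.23 ± 0.05 (SE, log2) with a peak at ZT15.2 ± 0.776 h (SE) and an adjusted p of 0.00334 (limma), and it was called without any 1 liver (up to 0.00897). Dark livers were 0.28 ± 0.06 (SE, log2) above light livers (adjusted p = 0.00521, limma).

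Both high time points of *Egln1* differed from the early light. ZT13 was 0.40 ± 0.11 (SE, log2) above ZT1 (adjusted p = 0.0214) and above ZT5 (adjusted p = 0.0195), and ZT17 was 0.39 ± 0.11 above ZT1 (adjusted p = 0.0425) and above ZT5 (adjusted p = 0.0208, limma). ZT17 was also 0.34 ± 0.11 above ZT9 (adjusted p = 0.0405, limma). These 5 calls were less firm than the curve. Those of ZT13 were lost without ZT13 replicate 1 or 2, and also without ZT1 replicate 2 or 3 (against ZT1) or ZT5 replicate 2 (against ZT5). Those of ZT17 were lost without ZT17 replicate 1 or 3, and also without ZT1 replicate 2 or 3, ZT9 replicate 1 or ZT21 replicate 3 (against ZT1), ZT5 replicate 2 (against ZT5), and ZT9 replicate 1 or 2 or ZT21 replicate 3 (against ZT9), with a lowest difference of 0.27 and adjusted p up to 0.144. With equal column totals 4 of the 5, all but ZT13 against ZT1, were lost (0.25 to 0.35). JTK gave *Egln1* a q-value of 0.0679, and of the 18 runs without 1 liver it called the gene in 1, that without ZT1 replicate 1 (q-value 0.0273).

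*Egln2* (ENSMUSG00000058709, chr7:27158658-27166802, minus strand) encodes the family member also called PHD1. Its light values were 41.2, 41.2 and 46.4 at ZT1, 52.6, 48.1 and 48.9 at ZT5 and 47.9, 53.0 and 56.7 at ZT9. The dark values were 56.1, 48.4 and 50.3 at ZT13, 47.4, 45.6 and 45.9 at ZT17 and 44.0, 41.8 and 44.3 at ZT21. The 9 livers of ZT5, ZT9 and ZT13 were all above the 9 livers of ZT1, ZT17 and ZT21. The amplitude was 0.16 ± 0.03 (SE, log2), close to the median of all genes, with a peak at ZT10.1 ± 0.844 h (SE) and an adjusted p of 0.00605 (limma), and it was called without any 1 liver (up to 0.0176).

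JTK also called *Egln2* (q-value 0.0278). The call was made in 11 of the 18 runs without 1 liver, but not without ZT5 replicate 2, ZT9 replicate 2 or 3, ZT17 replicate 1 or any 1 liver of ZT21 (q-values 0.0513 to 0.0618), or with equal column totals (0.0663). The 6 time points compared without a curve did not pass for *Egln2* (adjusted p = 0.0607, limma), and neither did any pair of them. The difference between dark and light was -0.04 ± 0.05 (SE, log2; adjusted p = 0.637, limma), and its high livers lay on both sides of lights off. *Egln1* and *Egln2*, enzymes with the same reaction, thus had fitted peaks at ZT15.2 and ZT10.1, with SEs of less than 1 h. That difference between the genes was not tested.

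*Egln3* (ENSMUSG00000035105, chr12:54178981-54203860, minus strand) encodes the family member also called PHD3, a HIF target itself. Its values in the light were 14.5, 17.4 and 12.7 at ZT1, 13.2, 15.5 and 22.8 at ZT5 and 15.2, 10.8 and 13.0 at ZT9. In the dark they were 13.5, 18.2 and 12.9 at ZT13, 15.8, 13.4 and 14.6 at ZT17 and 14.1, 10.3 and 14.01 at ZT21. Every time point overlapped every other, and ZT5 replicate 3 alone reached 22.8. The spread between livers of a time point (CV 17.9%) was larger than that between time points (CV 10.9%). Neither the 24 h curve (amplitude 0.07 ± 0.08, SE, log2; adjusted p = 0.782) nor the time points (adjusted p = 0.544, limma) passed.

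*Vegfa* (ENSMUSG00000023951, chr17:46016993-46032369, minus strand) encodes the vascular endothelial growth factor that hepatocytes supply to the sinusoidal endothelium. Its light values were 122, 129 and 142 at ZT1, 120.3, 140.1 and 139 at ZT5 and 159.8, 130.8 and 146 at ZT9. Its dark values were 163, 177 and 155 at ZT13, 143, 183 and 122 at ZT17 and 156, 127 and 139.85 at ZT21. The 3 livers of ZT13 were above all 6 of ZT1 and ZT5, while ZT17 held both the second lowest and the highest value of the 18 livers. The amplitude of 0.15 ± 0.05 (SE, log2) with a peak at ZT13.8 did not pass (adjusted p = 0.0917, limma), and it passed without ZT17 replicate 3 (0.18, adjusted p = 0.0230). Dark livers were 0.15 ± 0.08 (SE, log2) above light livers (adjusted p = 0.192, limma).

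*Ankrd37* (ENSMUSG00000050914, chr8:45996902-46005707, minus strand) encodes an ankyrin repeat protein and is a HIF target in many cell types. It was the lowest of the 9 genes, with 1 to 50.9 estimated reads per liver and a median of 10. The light values were 0.719, 0.955 and 0.143 at ZT1, 1.99, 0.474 and 2.14 at ZT5 and 1.799, 0.792 and 1.16 at ZT9. The dark values were 2.23, 1.47 and 0.999 at ZT13, 0.172, 2.03 and 0.713 at ZT17 and 0.363, 0.207 and 0.383 at ZT21. All 3 livers of ZT21 were below all livers of ZT5, ZT9 and ZT13, and the livers of ZT17 spread over almost the whole range. The amplitude was 0.44 ± 0.13 on the log2(value + 1) scale (SE), which understates changes of so low a gene, with a peak at ZT9.74 ± 1.16 h (adjusted p = 0.0420, limma).

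The call of *Ankrd37* was made in 9 of the 18 fits without 1 liver. It was lost without ZT1 replicate 1 or 3, ZT9 replicate 1, ZT13 replicate 1 or 2, ZT17 replicate 3 or any 1 of the 3 livers of ZT21 (adjusted p 0.0517 to 0.0866, amplitude 0.40 to 0.45), and JTK did not call it (q-value 0.832). Its exons overlap those of *Lrp2bp* (349 bases, mean value 1.87) and *Ufsp2* (57 bases, mean value 29.7) on the other strand, and whether strand was used in counting is not given in the sources used here.

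*Bnip3* (ENSMUSG00000078566, chr7:138890836-138909519, minus strand) had the largest fitted amplitude of the 9 genes on the log2(value + 1) scale, although *Ankrd37*, at its few reads, had a larger ratio of highest to lowest time point on the linear scale (4.93 against 2.20). Its light values were 123, 123 and 132 at ZT1, 164, 169 and 203 at ZT5 and 243, 195 and 220.3 at ZT9. In the dark they were 291, 284 and 254 at ZT13, 205, 189.9 and 197 at ZT17 and 164, 150.5 and 149 at ZT21. All livers of ZT1 were below all others, all livers of ZT13 were above all others, and the means rose through the light phase and fell through the dark. The amplitude was 0.49 ± 0.05 (SE, log2), which is 1.98-fold between trough and peak, with a peak at ZT12.2 ± 0.367 h (SE) and an adjusted p of 2.56e-06 (limma). No liver decided this call (amplitude 0.47 to 0.52 and adjusted p up to 1.36e-05 without 1 liver), and JTK called *Bnip3* in all 18 such runs (q-value 0.00613 with all livers, up to 0.0119).

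*Bnip3* at ZT13 was 1.13 ± 0.10 (SE, log2) above ZT1 (adjusted p = 5.14e-06, limma) and 0.63 ± 0.10 above ZT5 (adjusted p = 0.000747). Between ZT13 and ZT21 it fell by 0.83 ± 0.10 (adjusted p = 0.000160, limma). Compared with ZT1, it was already higher by 0.50 at ZT5 (adjusted p = 0.0102) and by 0.79 at ZT9 (adjusted p = 0.000113), and still by 0.64 at ZT17 (adjusted p = 0.00214, limma). The difference between ZT17 and ZT13 (-0.48, adjusted p = 0.0328) was lost in 5 of the 18 fits without 1 liver, namely without ZT13 replicate 1 or 2 or any liver of ZT17 (adjusted p up to 0.119). That between ZT5 and ZT1 was lost without ZT5 replicate 3 (0.41, adjusted p = 0.0586, limma).

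The mean of *Bnip3* in the dark was 0.26 ± 0.06 (SE, log2) above that in the light (adjusted p = 0.00570, limma), and its curve peaked at the change from light to dark. The spread between time points (CV 27.4%) was larger than that between livers (CV 7.24%). For the median gene the same values were 14.9% and 13.8%. *Bnip3* shares 504 exon bases with an antisense transcript, *Gm45507*, which was not analysed here, and without the use of strand the reads of the 2 cannot be told apart.

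**Figure D3:**
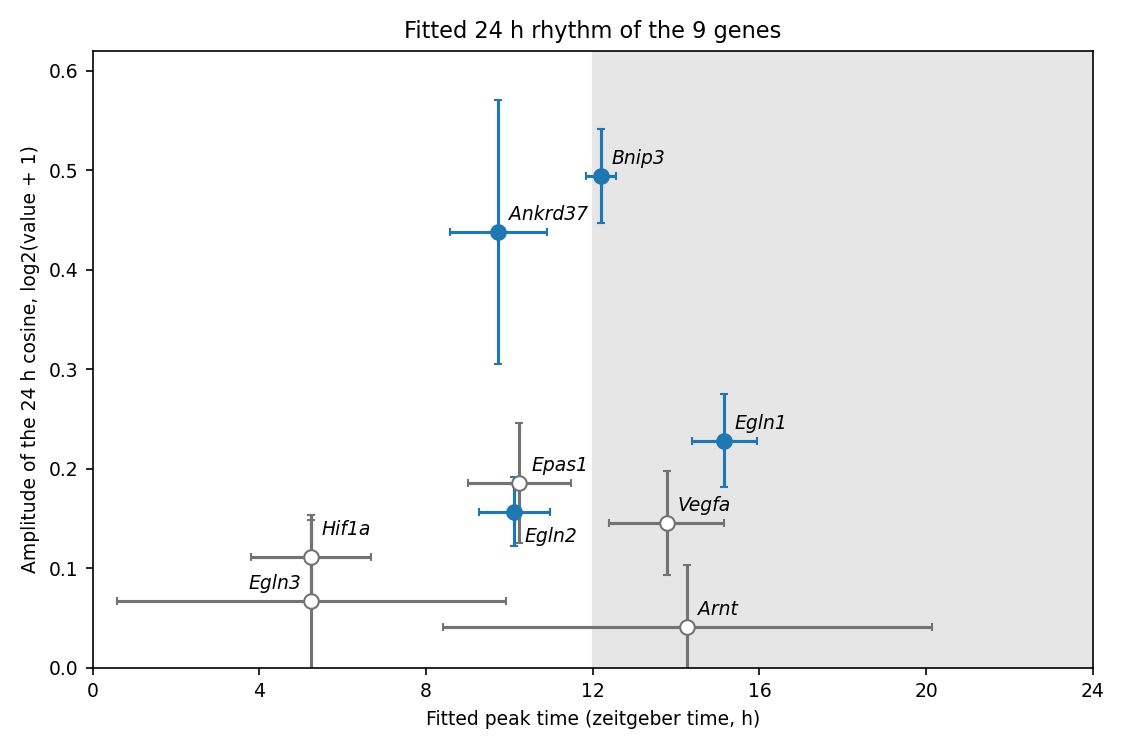
Amplitude of the fitted 24 h cosine on the log2(value + 1) scale (vertical axis) against its fitted peak in zeitgeber hours (horizontal axis) for the 9 genes. Bars are SEs, filled blue points are called at an adjusted p below 0.05 (limma), open grey points are not, and shading is the dark phase. *Bnip3* (0.49, ZT12.2) and *Ankrd37* (0.44, ZT9.74) have the largest amplitudes on this scale, with a larger error for *Ankrd37*.

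Levels were compared between genes per kb of merged exons (GENCODE M21, GRCm38), as means over 18 livers. *Bnip3* had the highest level, 84.8 per kb, and was followed by *Vegfa* (33.6), *Epas1* (26.2) and *Egln2* (17.1). *Hif1a* (7.45) and *Egln1* (7.002) lay close together, as did *Egln3* (5.46) and *Arnt* (5.11), and *Ankrd37* was the lowest (0.676). On this scale *Epas1* exceeded *Hif1a* among the alpha subunits, and *Egln2* exceeded *Egln1* and *Egln3* among the hydroxylases. No test was made between genes, whose exon lengths are those of all annotated transcripts together.

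Among the other genes of the HIF machinery, 9 of the 11 listed were tested and 4 had a 24 h rhythm (limma), against 35.3% of all genes. Of these, 3 belong to the von Hippel-Lindau ligase. *Rbx1*, its RING finger subunit, peaked at ZT17.0 with an amplitude of 0.16 ± 0.03 (SE, log2; adjusted p = 0.00562), and *Tceb2* (Elongin B) at ZT18.1 with 0.18 ± 0.04 (adjusted p = 0.00845, limma). *Cul2*, the scaffold of the ligase, peaked at ZT22.6 with 0.20 ± 0.04 (adjusted p = 0.00499, limma), from 36.2 ± 0.486 at ZT13 to 49.9 ± 2.38 at ZT1. *Crebbp*, an acetyltransferase that HIF recruits, peaked at ZT4.64 (0.18 ± 0.05, SE, log2; adjusted p = 0.0151, limma) and was lower in the dark. *Vhl* itself, named after its values were seen, did not pass for a 24 h rhythm (adjusted p = 0.0510) but was higher in the dark by 0.27 ± 0.08 (SE, log2; adjusted p = 0.0210, limma), with 14.7 ± 1.97 at ZT13 and 10.1 ± 0.694 at ZT9. With *Rbx1*, *Tceb2* and *Vhl*, 3 of the 9 were higher in the dark and 1 was lower, against 11.9% and 12.3% of all genes.

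Of 20 listed glycolytic HIF targets 19 were tested, and 10 had a 24 h rhythm (limma), against 35.3% of all genes, 8 of them with a fitted peak in the dark. In the dark 8 of the 19 were higher and 0 lower (limma, against 11.9% and 12.3% of all genes), and 1 was lower at an unadjusted p below 0.05. *Eno1* (enolase) rose from 405 ± 23.3 at ZT5 to 599 ± 72.5 at ZT13, with an amplitude of 0.28 ± 0.05 (SE, log2) and a peak at ZT16.5 (adjusted p = 0.000614, limma). *Gpi1* (glucose phosphate isomerase) peaked at ZT13.7 with 0.31 ± 0.05 (adjusted p = 0.000728), *Pgk1* (phosphoglycerate kinase) at ZT17.5 with 0.26 ± 0.05 (adjusted p = 0.00175), and *Tpi1* (triose phosphate isomerase) at ZT19.4 with 0.20 ± 0.03 (adjusted p = 0.000849, limma). The median amplitude of the 19 was 0.16, as for all genes.

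Among 30 other listed HIF targets 24 were tested. A 24 h rhythm was called in 15 of the 24 (limma), against 35.3% of all genes, with 8 peaks in the dark and 7 in the light. In the dark 8 were higher and 5 lower, against 11.9% and 12.3% of all genes. *Ndrg1*, a stress-responsive gene, had a peak at ZT0.692 with an amplitude of 1.23 ± 0.09 (SE, log2; adjusted p = 2.67e-07, limma), from 5.44 ± 1.49 at ZT13 to 31.2 ± 6.02 at ZT1, so that its mean was lowest where that of *Bnip3* was highest. *Ak4*, a mitochondrial adenylate kinase, had a peak at ZT11.1 (0.58 ± 0.05; adjusted p = 7.06e-07, limma) and means of 64.3 ± 4.42 at ZT1 and 140.4 ± 6.99 at ZT9. *Ddit4*, an inhibitor of the mTOR kinase, peaked at ZT19.2 (0.95 ± 0.09; adjusted p = 2.86e-06) and *Higd1a*, a respiratory chain assembly factor, at ZT17.6 (0.32 ± 0.04; adjusted p = 2.94e-05, limma). *P4ha1*, a collagen prolyl hydroxylase named after its values were seen, was the 1 gene of this list with a called 12 h term (adjusted p = 0.000164, limma). The median amplitude of the 24 was 0.35, against 0.16 for all genes. Its named members thus peaked in the early light, at the end of the light and in the dark.

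Of 9 listed VEGF family members and receptors 8 were tested, and 2 had a 24 h rhythm (limma), against 35.3% of all genes, both with a peak in the light. The time points without a curve called 0 of the 8 (lowest adjusted p 0.0512, for *Flt4*, limma), against 26.3%, and JTK called 0, against 14.1%. In the dark 0 were higher and 2, *Kdr* and *Figf*, lower (limma), against 11.9% and 12.3% of all genes. Both calls were near the threshold (adjusted p = 0.0475 and 0.0462, limma). *Figf* had few reads, 1 to 38 estimated per liver with a median of 10. *Kdr*, the main receptor of *Vegfa* on endothelium, had 51.8 ± 5.22 at ZT5 and 30.1 ± 8.02 at ZT21, with an amplitude of 0.40 ± 0.11 (SE, log2) and a peak at ZT6.91 (adjusted p = 0.0185, limma). *Flt4*, a receptor of *Vegfc*, had 24.02 ± 6.47 at ZT5 and 12.0 ± 3.09 at ZT21, with an amplitude of 0.47 ± 0.10 and a peak at ZT8.03 (adjusted p = 0.00621, limma). *Figf*, a ligand of *Flt4*, had an amplitude of 0.26 ± 0.09 (adjusted p = 0.0845) and *Nrp2*, a co-receptor, of 0.18 ± 0.07 (adjusted p = 0.141, limma). The means of *Kdr* and *Flt4* were highest at ZT5 and lowest at ZT21, the time points at which the endothelial marker sum was 244 to 301 and 139 to 213. The part of endothelial content in these values was not tested.

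**Figure D4:**
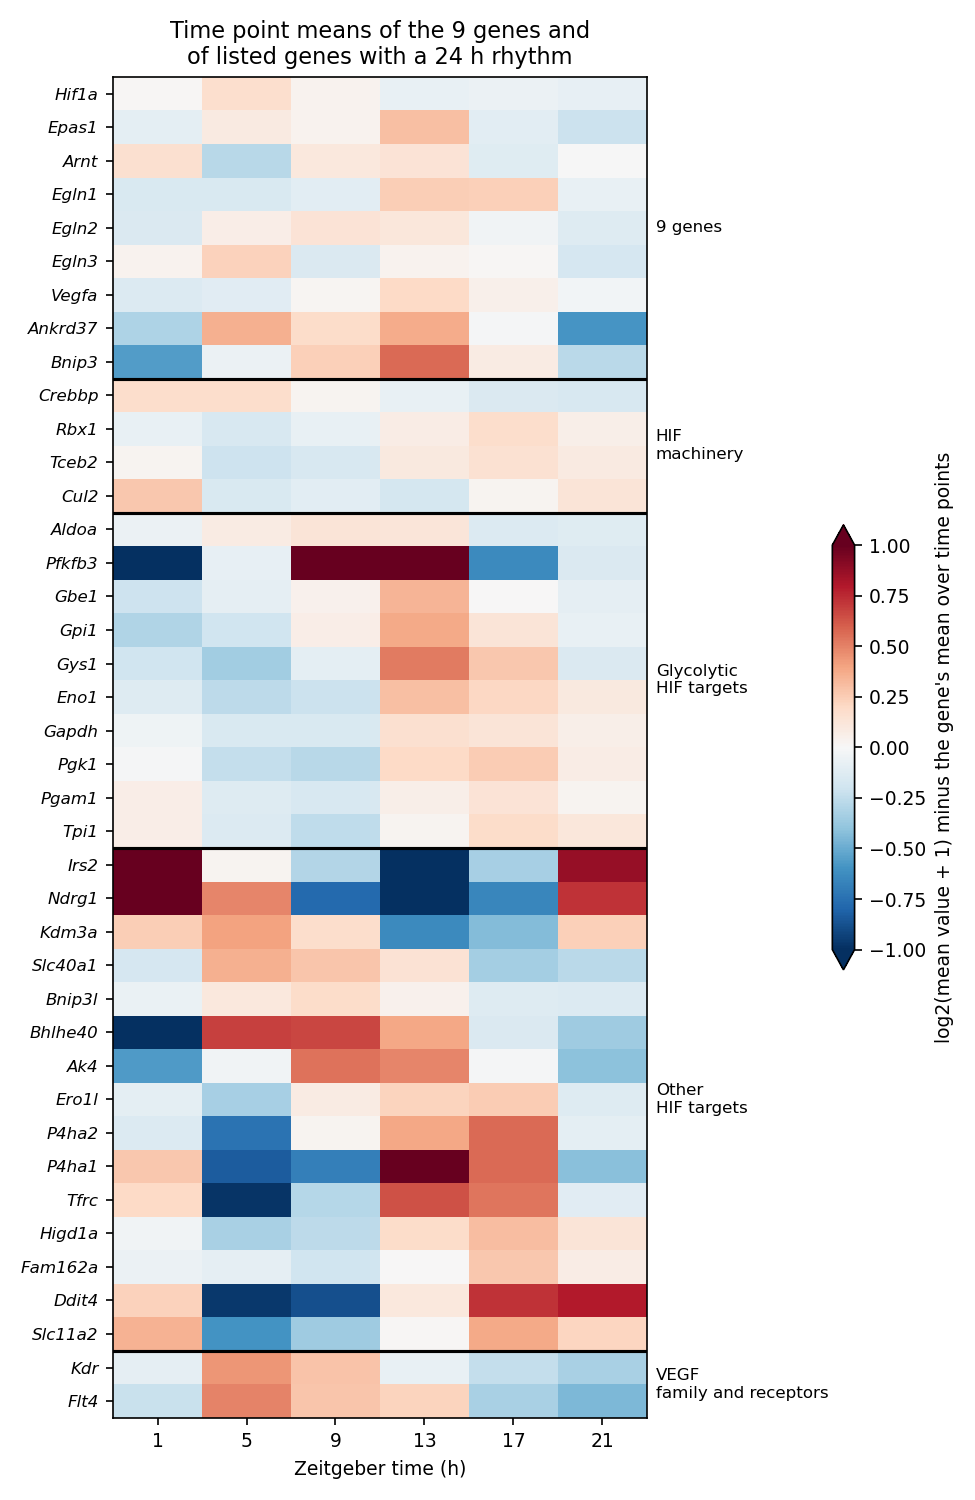
Time point means of the 9 genes and of the listed pathway genes with a called 24 h rhythm, as log2(mean value + 1) minus the gene's mean over the 6 time points. Red is above and blue below that mean, the colour scale is linear and ends at 1, and *Bnip3* runs from -0.56 at ZT1 to 0.57 at ZT13 while most glycolytic genes are above their mean at ZT13 and ZT17.

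The time labels were checked with clock genes. *Arntl* had a mean of 31.6 ± 1.88 at ZT1 and 1.31 ± 0.295 at ZT9, *Nr1d1* of 117 ± 24.996 at ZT5, *Dbp* of 111 ± 3.71 at ZT9 and *Per2* of 103 ± 8.97 at ZT13, each with a called 24 h rhythm (limma). The amplitude of *Bnip3*, 0.49, compares with 1.48 to 3.30 for these 4 genes. Summed hepatocyte markers ranged from 81126 to 108852 over the livers, stellate and fibroblast markers from 186 to 316, bile duct markers from 31.5 to 57.5 and blood markers from 103 to 378.

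Profiles were compared over the 18 livers by the root mean square difference of standardized log2(value + 1), which is 0 for the same shape. *Bnip3* had the closest partners, *Dgat2* at 0.254, which makes triglycerides, and *Inmt*, a methyltransferase, at 0.305, with fitted peaks at ZT12.6 and ZT12.4. *Egln1* was closest to *Slc35e1* (0.421) and *Rreb1* (0.468), *Egln2* to *Pofut2* (0.527) and *P2ry2* (0.549), and *Hif1a* to *Prkce* (0.427) and *Kif21a* (0.564). The next partners were *Stk19* (0.463) and *Gm16170* (0.557) for *Vegfa*, *Col1a2* (0.499) and *Lepr* (0.524) for *Epas1*, and *Gamt* (0.610) and *Acad10* (0.682) for *Ankrd37*. *Arnt* (*Yaf2*, 0.719, and *Tppp*, 0.746) and *Egln3* (*Rgn*, 0.705, and *RP23-306P12.2*, 0.757) had the most distant ones.

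Among the 9 genes themselves, the closest pairs were *Epas1* with *Egln2* (0.775) and *Egln2* with *Bnip3* (0.779), and the farthest was *Hif1a* with *Egln1* (1.74), the first highest at ZT5 and the second at ZT13. All 18 livers enter each value, so these differences share their depth and their scaling, and they are descriptions with no test.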

How the data were processed

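Gene expression was measured by RNA sequencing in 18 livers, with libraries from the NEBNext Ultra kit on a HiSeq2500. Per the labels and the study's methods, the authors made FASTQ files with CASAVA 1.8.2, removed adapters with Cutadapt, mapped reads on the GRCm38 transcriptome and quantified them with RSEM 1.2.20, which divides reads shared by several genes, and they normalized the estimated counts with limma. The deposited table gives a linear signal for each gene and liver. As worked out from the values, it equals (estimated count + 0.5) divided by the authors' effective library size and multiplied by 1000000. Column sums were 941088 to 1077230. The lowest value of a liver (0.0208 to 0.0478) stands for 0 reads. The values are not whole reads, so no count test was used. Of 14451 rows, 2 at the lowest value in every liver were left out.

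From these values, log2(value + 1) was fitted with limma 3.58.1 in R 4.3.3 by a cosine and sine of 24 h, by these with a 12 h pair, and by time point means, over all 14449 genes, with moderated F tests or contrasts and Benjamini-Hochberg adjustment over all genes (threshold 0.05). JTK was rewritten in Python 3.11.15 (18 cosine orders of 20, 24 and 28 h, exact null of the group sizes, Bonferroni over orders, then Benjamini-Hochberg). That null takes all time points as distinct, whereas the cosine orders hold tied time points, so JTK p-values are approximate. Both limma and JTK were tested on simulated data, in which 100 genes had an amplitude of 0.25 and 100 of 0.5 (log2). At 0.25 the 24 h fit recovered 49, the time point test 22 and JTK 9. At 0.5 they recovered 89, 68 and 30, and they called 10, 7 and 1 of the unchanged genes. A gene of low amplitude can thus be missed. Few genes changed there, so the adjustment was stricter than in the livers. Livers were grouped by zeitgeber time from the labels. Replicate numbers follow the order of deposit and are only names. Each liver is from its own mouse, so p-values measure the spread between mice. Pathway and marker lists were fixed with earlier results of these data known, as were the 9 genes. Genes named outside the 9 were the 4 of lowest adjusted p per pathway list, the 2 nearest profiles per gene and 4 clock genes, and exceptions are marked. Promoters are RefSeq windows, with 8 of the 9 genes matched (10 windows). *Epas1* was not matched. Both strands were searched for the E-box and for the core of the HIF element. Exons, overlaps and coordinates are from GENCODE M21. Depth was 10268168 to 23242842 estimated reads per liver (median 12078875), and counting error was not modelled. Alternatives were the pseudocount (0.1 or none), a mean value of at least 1, columns scaled to 1000000, median ratio scaling, limma-trend, other algorithms and leaving out each liver in turn.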

Additional observations from a re-analysis of the deposited data

How the results depend on the processing

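The 24 h calls of *Bnip3*, *Egln1* and *Egln2* were made under every alternative of that fit, each fit without 1 liver included. No called difference between time points or between dark and light reversed its direction under the alternatives run. An amplitude has no direction, and shifts of the fitted peak were not followed. The 24 h amplitude and the dark-light difference of each member were followed over all alternatives, and called pairs of time points over most. These values stayed on their side of the threshold 727 times, lost it 48 times and gained it 9 times. Pairs not called at first, the time point test and the 12 h term are outside this count, so gains among them are missing. The number of members with a 24 h rhythm was 3 to 5 without 1 liver, against 4. With limma-trend 5 members differed between time points, against 3 (3 to 4 without 1 liver), and 7 genes of the HIF machinery had a 24 h rhythm, against 4 (4 to 6 without 1 liver). With equal column totals *Egln1* lost its time point call (adjusted p = 0.0704) and *Egln2* gained one (adjusted p = 0.0371, limma). The 12 h term was called in 0 members with equal column totals, with no pseudocount and with a pseudocount of 0.1 (limma; 1 member had an unadjusted p below 0.05 in each), and in 0 to 1 without 1 liver, and over all genes in 62 with no pseudocount, in 76 with a pseudocount of 0.1 and in 32 to 114 without 1 liver, against 126. JTK called 1 to 3 members without 1 liver and 1 with equal column totals, against 2, and over all genes 1266 to 1913, against 2039, the lowest without ZT5 replicate 2. Among other algorithms, MC (JTK combined with Lomb-Scargle) called *Egln1*, *Egln2* and *Bnip3* (18.3% of all genes), and the cosine curve of CircaN with an R-squared of at least 0.7 called 1 member, *Bnip3* (R-squared 0.863, 11.2% of all genes). The causes of these changes were not tested. JTK without 1 liver used the exact null of the unequal groups. No paired analysis was possible because each liver came from its own mouse and the labels give the livers no shared number.

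Scaling moved the median of all genes by -0.10 to 0.08 (log2) per liver. With 3 livers at each of 6 time points in 1 cycle, a pattern that repeats over days cannot be told from one that does not, and values of genes with few reads, *Ankrd37* above all, are limited by depth.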
